A study of Homo sapiens with 10 samples.

Results

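The SLC25 genes encode the mitochondrial carriers, a family of inner-membrane proteins that exchange nucleotides, amino acids, organic acids, cofactors and ions between cytosol and mitochondrial matrix. Members were taken as all gene symbols of the array's probe table made of SLC25A and a number. This rule found 2 genes, SLC25A15 and SLC25A2, among the 14884 genes with a symbol at hand. The RefSeq gene table (GRCh38.p14) holds 48 such symbols, so 46 carriers of the family were not analysed here. Both members belong to the amino acid carriers, and both carry ornithine. The probe table also names 4 antisense RNAs and 1 pseudogene of SLC25 loci, which do not match the rule.

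In the urea cycle, ornithine is made in the cytosol by arginase and enters the matrix, where ornithine transcarbamylase turns it into citrulline. Also in the matrix, ornithine aminotransferase links ornithine to proline and glutamate. SLC25A15 (ORNT1) exchanges ornithine for citrulline across the inner membrane, and its loss in humans causes the hyperornithinemia-hyperammonemia-homocitrullinuria syndrome. SLC25A2 (ORNT2) is a close relative that also accepts other basic amino acids. Ornithine is also the precursor of the polyamines. In RefSeq, SLC25A15 lies on chromosome 13 between the coding genes MRPS31 and ELF1, and SLC25A2 on chromosome 5 between PCDHB15 and TAF7.

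RNA was profiled from HEK293T cells, a cell line of human embryonic kidney with the SV40 large T antigen, on 10 Affymetrix GeneChip Human Gene 2.0 ST arrays. In 8 arrays the cells had been exposed for 6 h to bacterial extracellular vesicles (bEVs) of 1 strain each, L. acidophilus, L. rhamnosus, L. plantarum, L. salivarius, S. thermophilus, L. paracasei, L. fermentum or Lc. lactis (spelled Lc. lactics in the labels), and 2 arrays came from control cells. The dose was the maximum tolerated one of each bEV, so strain and dose cannot be told apart. Per the methods, triplicate RNA was pooled into 1 composite sample, which is taken to hold for each array. Every bEV was therefore measured once, and the values hold no spread between cultures. Nothing says that the controls were separate cultures, so p-values cover the spread of these arrays alone. The spread between the controls may be technical. In the fit of all 10 arrays, the spread comes mostly from the 8 bEV arrays, which differ in strain and dose. There the strains are the points of a single bEV arm and are not replicates of 1 condition. The labels do not say how the control cells were handled, one protocol field names another agent (Pk2), and several titles number the cell line differently although the cell line field gives HEK293T.

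The values are log2 signals per probe set, and their number of arrays limits the precision. Of 53617 probe sets, 37519 (70.0%) have no symbol here. The array medians lay between 3.29 and 3.33. Of 7 marker genes set for HEK293T cells, 4 were measured (PAX2, LHX1, SOX2 and LIN28B), with mean log2 signals of 4.47 to 8.55. The 8 measured markers of immune cells, fibroblasts, hepatocytes and endothelium had mean log2 signals of 1.83 to 3.92.

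SLC25A15 was measured by 1 probe set with a mean log2 signal of 6.79, above the median of all genes (4.63). Its log2 signal was 6.84 with L. acidophilus bEV, 6.80 with L. rhamnosus bEV, 6.74 with L. plantarum bEV and 6.70 with L. salivarius bEV. The other bEV arrays had 6.79 with S. thermophilus, 6.79 with L. paracasei, 6.73 with L. fermentum and 7.03 with Lc. lactis, against 6.82 in control 1 and 6.61 in control 2. The groups overlapped. Of the 8 bEV arrays, 6 lay between the 2 controls and 2 lay above both, those of Lc. lactis and L. acidophilus. Ordered by level, neighbouring bEV arrays were at most 0.18 apart on the log2 scale, at the step from L. acidophilus to Lc. lactis. No step in this order was larger than the 0.22 that separated the controls.

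SLC25A2 was likewise measured by 1 probe set, with a mean log2 signal of 4.03, below the median of all genes. This is close to 3.92, the highest mean among the markers of other cell types. Whether the SLC25A2 signal lies above background was not tested, and its values below carry this limit. Its log2 signal was 3.87 with L. acidophilus bEV, 4.17 with L. rhamnosus bEV, 3.97 with L. plantarum bEV and 4.11 with L. salivarius bEV. It was 3.92 with S. thermophilus, 3.92 with L. paracasei, 4.12 with L. fermentum and 3.99 with Lc. lactis, against 4.02 in control 1 and 4.21 in control 2. Here too the groups overlapped. In 3 bEV arrays (L. rhamnosus, L. salivarius and L. fermentum) the signal lay between the controls, and in the other 5 it lay below both. Neighbouring bEV arrays were at most 0.13 apart, less than the 0.19 between the controls. SLC25A2 and SLC25A15 are related in sequence, and whether the probes of one also detect transcripts of the other was not tested.

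**Figure D1:**
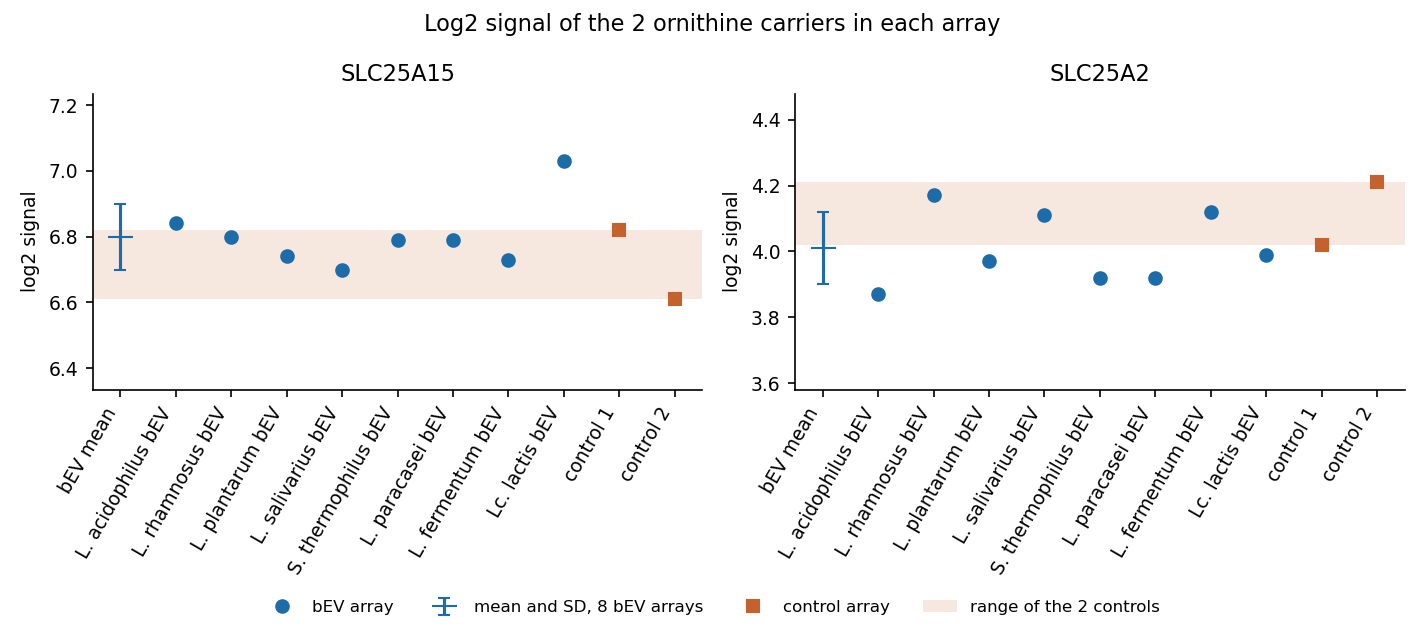
Log2 signal (vertical axis) of SLC25A15 (left) and SLC25A2 (right) in each of the 8 bEV arrays and the 2 control arrays, with the mean and SD of the 8 bEV arrays at the far left and the range of the controls shaded. For SLC25A15, 6 bEV arrays lie in the shaded range and the highest is Lc. lactis at 7.03, and for SLC25A2, 3 lie in it and 5 lie below.

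The first comparison asked whether the bEVs as a group shifted either carrier. SLC25A15 averaged 6.80 ± 0.10 in bEV arrays (SD, n = 8) and 6.71 ± 0.15 in control arrays (SD, n = 2). The log2 fold change was 0.09 (SE 0.11, limma, adjusted p = 0.796), with a 95% interval of -0.14 to 0.32. As a fold change this is 1.06, with bounds of 0.91 and 1.25. SLC25A2 averaged 4.01 ± 0.11 in bEV arrays (SD, n = 8) and 4.11 ± 0.14 in control arrays (SD, n = 2). Its log2 fold change was -0.10 (SE 0.11, limma, adjusted p = 0.755), with a 95% interval of -0.34 to 0.13. The fold change was 0.93, with bounds of 0.79 and 1.09. For both carriers the interval of the mean difference lay inside 1.5-fold in either direction (0.58 on the log2 scale), the cutoff for differential expression in the study's methods. In these bulk samples, fewer cells that express a gene and less of its RNA per cell cannot be told apart.

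Neither carrier passed limma at an adjusted p under 0.05, and 0% of the 14884 genes did. At an unadjusted p under 0.05 in limma, 0 of the 2 carriers passed, against 11.3% of all genes. The 8 bEV arrays lay above both controls for 5.11% of all genes and below both for 4.07%, and for 0 of the 2 carriers in either direction. The median log2 fold change was -0.008 over the 2 carriers and 0.001 over all genes.

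The sign of the small SLC25A15 difference rested on the controls. Without control 1 its log2 fold change was 0.20, and without control 2 it was -0.02. For SLC25A2 the log2 fold change was -0.20 without control 1 and -0.01 without control 2.

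The second comparison set each bEV array against the controls by itself. SLC25A15 lay above the mean of both controls in 7 of 8 bEV arrays. Its log2 fold change was 0.31 with Lc. lactis, 0.13 with L. acidophilus, 0.09 with L. rhamnosus, 0.08 with S. thermophilus and 0.07 with L. paracasei. It was 0.03 with L. plantarum, 0.02 with L. fermentum and -0.02 with L. salivarius. The value for Lc. lactis was 0.20 against control 1 and 0.42 against control 2, so it lay above each control, but short of 1.5-fold against either. In 6 of the 8 bEV arrays, SLC25A15 lay below control 1 and above control 2.

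SLC25A2 lay below the mean of both controls in 6 of 8 bEV arrays, with L. salivarius at 4.11 differing from the control mean of 4.11 only beyond the second decimal. The log2 fold change was -0.24 with L. acidophilus, -0.20 with S. thermophilus, -0.19 with L. paracasei, -0.15 with L. plantarum and -0.13 with Lc. lactis. It was 0.06 with L. rhamnosus and 0.01 with L. fermentum. The lowest value, that of L. acidophilus, was -0.15 against control 1 and -0.34 against control 2. In 5 of the 8 bEV arrays SLC25A15 lay above its control mean while SLC25A2 lay below its own, and in 0 the reverse held. Both lay above in 2 arrays and both below in 1. These counts depend on the control. Against control 2, SLC25A15 lay above and SLC25A2 below in every bEV array. Against control 1, this held only with L. acidophilus and Lc. lactis. There the reverse held with L. rhamnosus (SLC25A15 -0.02, SLC25A2 0.15), L. salivarius (-0.13, 0.09) and L. fermentum (-0.09, 0.10). The 8 comparisons share the same 2 controls.

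At 1.5-fold against the mean of both controls, 0 of the 2 carriers passed in any of the 8 bEVs. Of all genes, 3.56% passed with L. acidophilus bEV, 4.64% with L. rhamnosus bEV, 5.15% with L. plantarum bEV and 2.94% with L. salivarius bEV. The share was 3.77% with S. thermophilus, 4.66% with L. paracasei, 3.46% with L. fermentum and 3.49% with Lc. lactis. Between the 2 controls, 5.44% of all genes and 0 of the 2 carriers differed by 1.5-fold. In limma for each bEV against both controls, the adjusted p of the carriers ran from 0.835 to 1, and 0% of all genes passed in each of the 8 fits. This fit takes the spread of the single bEV array to equal that of the controls, and its intervals were wide. Of 16 intervals, 9 lay inside 1.5-fold in both directions, and the outermost bounds were -0.72 (SLC25A2 with L. acidophilus) and 0.80 (SLC25A15 with Lc. lactis). The other 7 intervals reached past 1.5-fold, so for those a change of that size was not distinguishable from none, and the estimates do not show that the strains act alike.

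**Figure D2:**
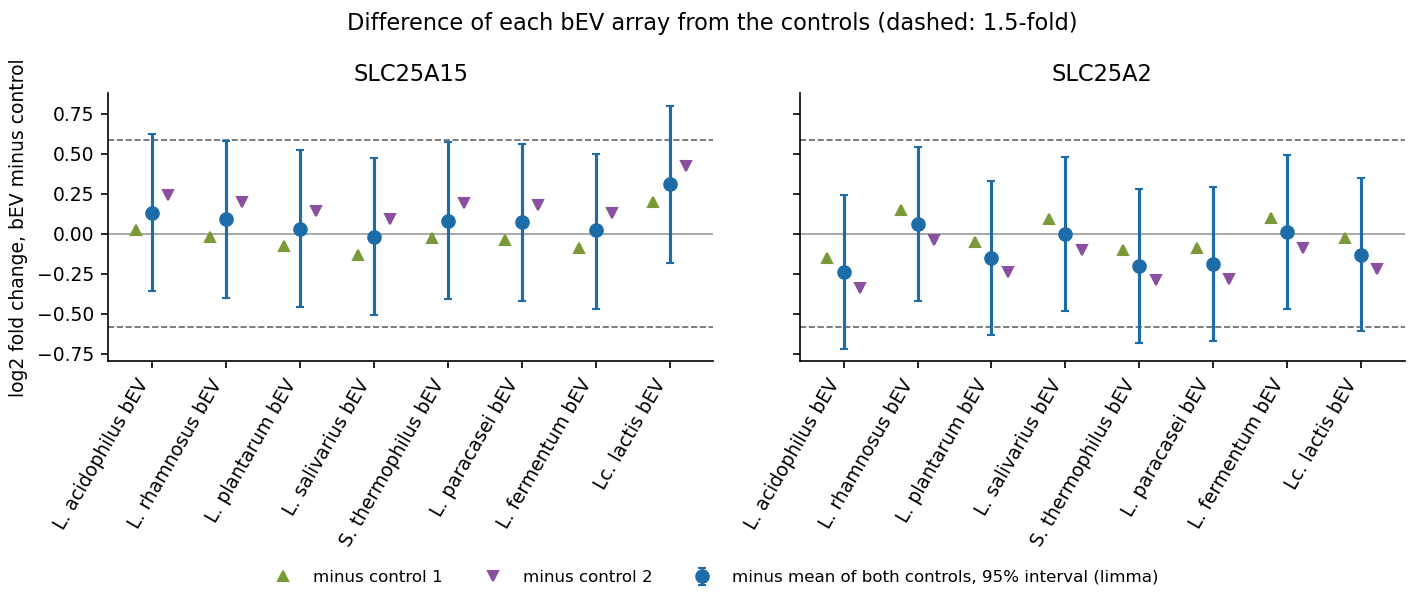
Log2 fold change (vertical axis) of SLC25A15 (left) and SLC25A2 (right) for each bEV array against the mean of both controls (circles, with the 95% interval from limma), against control 1 (upward triangles) and against control 2 (downward triangles), with dashed lines at 1.5-fold. All points lie inside the dashed lines, the farthest being SLC25A15 with Lc. lactis against control 2 at 0.42, while 7 of the 16 intervals cross a dashed line.

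Both carriers varied little between bEV arrays. The SD over the 8 bEV arrays was 0.10 for SLC25A15 and 0.11 for SLC25A2, and the median over all genes was 0.17. Of all genes, 13.1% had a smaller SD than SLC25A15 and 17.4% a smaller SD than SLC25A2. The distance between the 2 controls was closer to that of other genes. It was 0.22 for SLC25A15 and 0.19 for SLC25A2, with a median of 0.17 over all genes. The full range of the 8 bEV arrays was 0.33 on the log2 scale for SLC25A15 and 0.30 for SLC25A2.

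Genes of ornithine, urea cycle, proline, polyamine and arginine metabolism were looked up next, and not all of them make or use ornithine itself. Of 34 listed, 27 were measured, and 0 passed limma at an adjusted p under 0.05. No arginase was among the 27, and where ornithine is made in these cells was not tested. At 1.5-fold against the mean of both controls, 4 of the 27 passed in at least 1 of the 8 bEVs. The shares of all genes given above, 2.94% to 5.15%, are for 1 bEV at a time and do not match this count. The 4 genes were ASS1, PRODH, OAZ3 and SAT1, each in 1 bEV only. For ASS1 the controls, at 7.01 and 6.41, were themselves more than 1.5-fold apart. At an unadjusted p under 0.05 in limma, 4 passed (SMOX, AZIN1, PAOX and NOS3), and the share over all genes was the 11.3% given above. These 27 genes had a median log2 fold change of -0.07. All 8 bEV arrays lay above both controls for 3 of them (11.1%) and below both for 2 (7.41%, OAT and PAOX, a polyamine oxidase), against the 5.11% and 4.07% of all genes given above. OAT, the ornithine aminotransferase of the matrix, had 6.66 to 6.83 in bEV arrays, against 6.91 and 6.94 in controls (log2 fold change -0.18, SE 0.09, limma, adjusted p = 0.472). OTC, the ornithine transcarbamylase that takes up the ornithine SLC25A15 delivers, had a low signal of 1.56 to 2.04 in bEV arrays, against 2.13 and 1.96 in controls. ODC1, which makes the first polyamine from ornithine, had 10.00 to 10.19 in bEV arrays, against 9.98 and 10.16 in controls. Polyamine synthesis and turnover made up 14 of the 27 genes, and these 14 had a median log2 fold change of -0.01. The 3 genes above both controls in every bEV array come from these 14, namely SMOX (spermine oxidase), SAT1 (polyamine acetylation) and AZIN1 (antizyme inhibitor). Their log2 fold changes were 0.33, 0.30 and 0.24 (limma, adjusted p = 0.341, 0.518 and 0.382). The signal of SAT1 was uneven, at 5.18 to 5.99 in bEV arrays, against 5.17 and 5.14 in controls. PAOX had a log2 fold change of -0.26 (limma, adjusted p = 0.405). NOS3, the endothelial nitric oxide synthase, which uses arginine, had -0.31 (limma, adjusted p = 0.41), with 7 of 8 bEV arrays below both controls. Its signal was low, at 3.35 to 3.87 in bEV arrays, against 3.97 and 3.84 in controls. SMOX, SAT1, AZIN1, PAOX, NOS3, ASS1, PRODH and OAZ3 were named after their values were seen.

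Lists of genes around the carrier family gave the following counts, again with 0 genes past limma at an adjusted p under 0.05. In at least 1 bEV, 1.5-fold was passed by 0 import genes, 1 other carrier or channel and 2 enzymes that use carried substrates. For these counts too, no matching share over all genes is given. The counts of genes with all 8 bEV arrays on a single side of the controls stand beside 5.11% above and 4.07% below over all genes, and with 14 or 15 genes a list, 1 gene moves such a share by more than either value. Of 15 measured genes for the import of carrier proteins, 3 (TOMM5, TOMM6 and TIMM13) lay below both controls in all 8 bEV arrays and 0 above, with a median log2 fold change of -0.12. TOMM22, TIMM13 and TOMM5, parts of the import machinery, had log2 fold changes of -0.32, -0.31 and -0.27 (limma, adjusted p = 0.417, 0.382 and 0.373). For TOMM22, 7 of 8 bEV arrays lay below both controls and 1 lay above both. Among 14 other carriers and channels of mitochondrial membranes, 1 lay above (VDAC1) and 2 below (MPC1 and VDAC3), with a median of -0.07. MPC1, a subunit of the mitochondrial pyruvate carrier, had 6.38 to 6.72 in bEV arrays, against 6.87 and 7.05 in controls (log2 fold change -0.35, limma, adjusted p = 0.341). MPC2, its partner subunit, had 7.08 to 7.64 in bEV arrays, against 8.03 and 7.51 in controls (log2 fold change -0.35, limma, adjusted p = 0.443). For MPC2 only 5 of 8 bEV arrays lay below both controls, and the size of its difference depends on which control is used. SFXN5, a sideroflexin, had -0.24 (limma, adjusted p = 0.501). Of 15 enzymes that use carried substrates, 2 lay above (MTHFD1L and ISCU) and 0 below, with a median of 0.09. MTHFD1L, a mitochondrial one-carbon enzyme, had 0.40, PCK2, the mitochondrial phosphoenolpyruvate carboxykinase, 0.33, and ISCU, the scaffold of iron-sulfur cluster assembly, 0.29 (limma, adjusted p = 0.341, 0.574 and 0.377). For PCK2 only 5 of 8 bEV arrays lay above both controls.

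**Figure D3:**
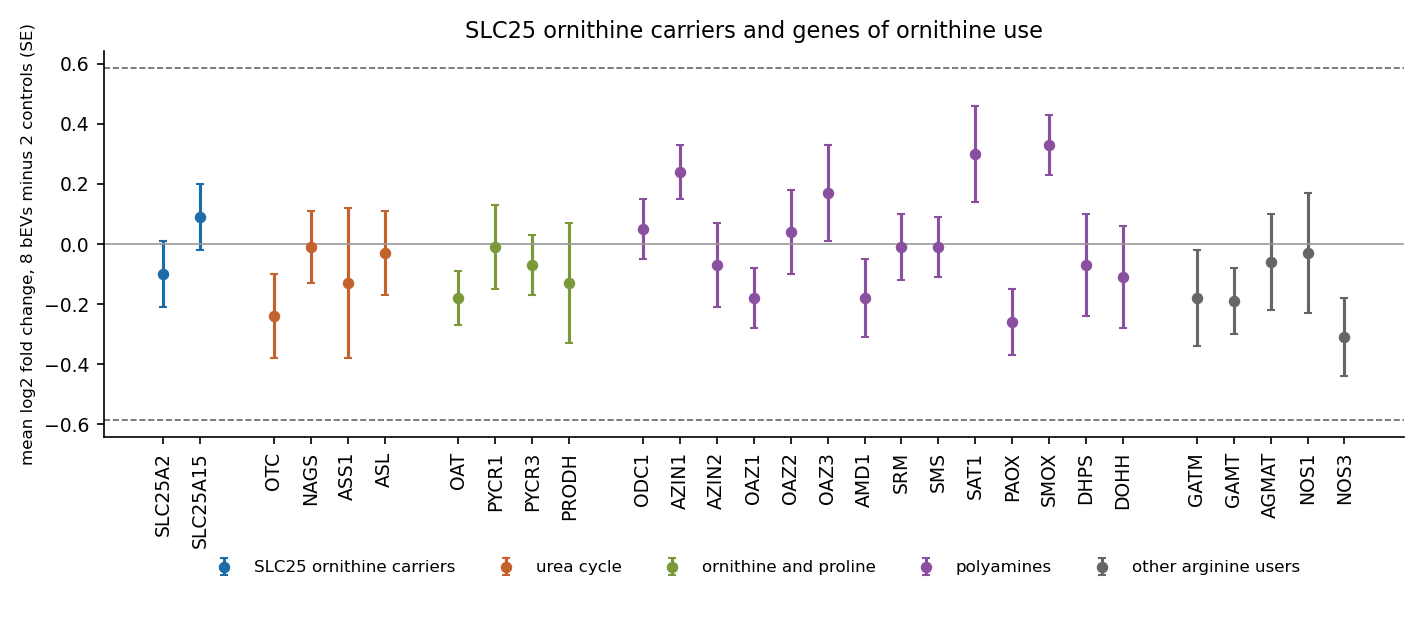
Mean log2 fold change of the 8 bEV arrays minus the 2 controls (vertical axis, error bars are the SE from limma), with dashed lines at 1.5-fold. Shown are SLC25A2, SLC25A15 and 27 genes of ornithine, urea cycle, proline, polyamine and arginine metabolism, grouped by role. Every mean lies inside the dashed lines, and the carriers stand at -0.10 and 0.09. In at least 1 single bEV, 4 of the 27 genes passed 1.5-fold, and no matching share over all genes is given.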

How the data were processed

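Gene expression was measured in HEK293T cells on 10 arrays, 8 bEV and 2 control. The authors deposited log2 signals per probe set. The submitters' processing notes list MAS5 with no version, and the methods add GeneChip Command Console. The handling of background, array scaling and probe summaries was not given in the sources used here, and differences in scaling could shift any fold change. Values were used as deposited, and each of the 10 columns matched 1 sample.

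Probe sets were named through the platform's probe table, with symbols updated by Entrez ID from RefSeq (GRCh38.p14). Where several probe sets shared a gene (779 genes), the brightest by mean signal stood for it. SLC25A15 and SLC25A2 have 1 each. Fold changes are differences of log2 signals, bEV minus control. limma (version 3.58.1, R 4.3.3) with eBayes and Benjamini-Hochberg adjustment over 14884 genes was run for the 8 bEV arrays against the 2 controls (8 residual degrees of freedom, prior 5.14) and for each bEV against both controls (1 residual degree of freedom). The fit was checked on simulated data, in which the planted changes were larger than any mean change given here. Whether it calls changes as small as these was not tested. Python 3.11.15, numpy 2.4.6, pandas 2.3.3 and matplotlib 3.10.9 were used.

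The members and lists were chosen with earlier results of these data known. The lists of ornithine, urea cycle, proline, polyamine and arginine genes were added once it was known which carriers have a symbol. The naming rule took members past 1.5-fold against each control in a bEV, members whose 8 bEV arrays all lay above or all below both controls, and the 5 highest and 5 lowest by mean change, which covers both carriers. It also took the 3 genes of each surrounding list with the largest absolute mean change. OAT, OTC and ODC1 were named for their role in ornithine use, outside the rule. TOMM6, VDAC1, VDAC3, NOS3, ASS1, PRODH and the polyamine genes were chosen once their values had been seen.

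As alternatives, the following were tried: leaving out every array in turn, quantile normalization, median centring, only genes at or above the median signal, averaging all probe sets that share a gene, raising values under the 10th percentile to it (1.80), limma with trend and robust variance, 1.5-fold against each control alone, and a fold change of 2.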

Additional observations from a re-analysis of the deposited data

Results flagged for a closer look

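SLC25A15 with Lc. lactis bEV, at a log2 signal of 7.03, stood apart from the other 7 bEV arrays. Its gap to the next array, L. acidophilus, was 0.18, or 0.556 of the range of the 8 arrays, above Dixon's critical value of 0.526 at the 95% level. The arrays come from different strains, so they are not replicates of 1 condition, and such a flag arises by chance in about 1 in 20 groups. Without the Lc. lactis array, the log2 fold change of SLC25A15 over the remaining bEVs was 0.06. SLC25A2 had a log2 signal of 3.99 in the same array, between its other bEV arrays.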

How the results depend on the processing

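Under the alternatives tried, 0 of the 2 carriers passed limma and 0 passed 1.5-fold in any bEV, also with 1 control left out. The log2 fold change of SLC25A15 ran from -0.02 to 0.20 with 1 control left out, and it turned negative without control 2. Without 1 bEV array it ran from 0.06 to 0.10. For SLC25A2 it ran from -0.20 to -0.01 over all alternatives. Adjusted p-values in limma stayed at 0.671 or higher for both genes. Restricted to genes at or above the median signal, SLC25A2 drops out and the median of the family is that of SLC25A15 alone, 0.088. Each carrier has 1 probe set, so other choices of probe set give the same values. The limma fit of a single bEV was not run with 1 control, since no spread between arrays is left there. No paired analysis was possible because each bEV has 1 array and no label pairs it with a control. The number of arrays and the distance between the 2 controls limit every value.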
